A study of Mus musculus with 48 samples.

Results

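Transcripts of 9 genes typical of the choroid plexus epithelium were followed through RNA sequencing of mouse brain: Ttr, Kl, Folr1, Prlr, Kcnj13, Clic6, Aqp1, Slc4a5 and Otx2. They were taken by symbol from a table of 54532 genes, and all 9 were found. The mice were male wild-type C57Bl6, infused for 2 weeks from an osmotic minipump with angiotensin II at 0.7 mg per kg per day or with 0.9% saline (vehicle). Part of each kind also drank hydralazine at 50 mg per kg. Angiotensin II is a peptide hormone that raises blood pressure, and hydralazine is a vasodilator that lowers it. This gave 4 treatments: vehicle, vehicle plus hydralazine, angiotensin II, and angiotensin II plus hydralazine. Brain hemisphere and hippocampus were sequenced for each, giving 8 groups of 6 libraries (48 in all). The labels do not say that the 6 libraries of a group are separate mice, nor that same-numbered libraries of the 2 regions share a mouse, so p-values measure the spread between libraries. The questions are how far these genes differ with treatment and region, and how much they vary between libraries of one group, which bears on what each dissection took along.

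The choroid plexus is a vascular fringe inside the brain ventricles, covered by a single layer of epithelial cells that secrete cerebrospinal fluid. Water follows sodium, chloride and bicarbonate across these cells through aquaporin-1 and a set of transporters, and the cells also release carrier proteins and hormones into the fluid. A piece of choroid plexus lies in the lateral ventricle directly beside the hippocampus, so it can remain attached to or be lost from dissected tissue.

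By role, Ttr encodes transthyretin, the carrier of thyroid hormone and retinol-binding protein that the epithelium secretes in large amounts. Kl encodes klotho, a membrane and shed protein that serves as co-receptor for the hormone FGF23. Folr1 encodes a folate receptor that moves folate into cerebrospinal fluid, and Prlr the prolactin receptor. Kcnj13 encodes the potassium channel Kir7.1, Clic6 a member of the chloride intracellular channel family, and Aqp1 the water channel aquaporin-1. Slc4a5 encodes a sodium bicarbonate cotransporter, and Otx2 a homeodomain transcription factor needed for the choroid plexus to form.

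All 9 are protein-coding genes of GRCm38. Kl (ENSMUSG00000058488) lies on chromosome 5 at 150952607 to 150993817, Folr1 (ENSMUSG00000001827) on chromosome 7 at 101858331 to 101870788 and Prlr (ENSMUSG00000005268) on chromosome 15 at 10177238 to 10349180. Kcnj13 (ENSMUSG00000079436) lies on chromosome 1 at 87386363 to 87394729 and Clic6 (ENSMUSG00000022949) on chromosome 16 at 92485736 to 92541243. Aqp1 (ENSMUSG00000004655) is at 55336432 to 55348555 and Slc4a5 (ENSMUSG00000068323) at 83219828 to 83304945, both on chromosome 6. Otx2 (ENSMUSG00000021848) lies on chromosome 14 at 48657677 to 48673819. Kcnj13 sits inside Gigyf2 on the opposite strand and shares 623 of its 1270 exon bases with it, and Otx2 shares 154 exon bases with the antisense gene Otx2os1. Whether counting used strand was not given in the sources used here, and reads of these pairs cannot be told apart.

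Hemisphere libraries held 15.77 to 23.5 M reads in genes (M stands for 1000000, recovered from the deposited values) and 23161 to 25610 genes above 0. In the hippocampus 18 libraries held 18914 to 23044 genes, and 6 held only 7805 to 15684: vehicle replicates 3 and 4, angiotensin II replicate 3, vehicle plus hydralazine replicates 3 and 4, and angiotensin II plus hydralazine replicate 5. In these 6 a gene listed at 0 may be a failed detection, and some results that rest on them are given with and without them. The region labels were borne out by 10 genes typical of hippocampal neurons, whose summed level was 307 to 498 FPKM in hippocampal libraries and 115 to 158 FPKM in hemisphere libraries. FPKM counts fragments for each kilobase of a gene, scaled to the reads of the library, so it is a level per gene length and can be set side by side between genes.

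In the hemisphere all 9 genes were detected in all 24 libraries. Ttr was by far the most abundant, with a median of 530 FPKM (284 to 820). Below it came Clic6 with a median of 3.62 FPKM, then Aqp1 with 1.59, Folr1 with 1.53, Kcnj13 with 1.51, Kl with 1.5 and Otx2 with 1.26. Slc4a5 followed with 0.574 FPKM and Prlr with 0.28. Aqp1, Folr1, Kcnj13 and Kl did not differ in level beyond the spread between libraries.

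By treatment, hemisphere Ttr ran from 471 to 820 FPKM in vehicle (median 621), from 369 to 628 in vehicle plus hydralazine (median 571), from 349 to 687 in angiotensin II (median 513) and from 284 to 589 in angiotensin II plus hydralazine (median 434). Vehicle stood highest and both drugs together lowest, but every group overlapped every other. Klotho's gene ran from 1.49 to 2.7 FPKM in vehicle (median 1.71) and from 1.11 to 1.64 in angiotensin II (median 1.36). In vehicle plus hydralazine it ran from 1.07 to 2.08 FPKM (median 1.68), and in angiotensin II plus hydralazine from 1.04 to 2.06 (median 1.37). These 4 ranges overlapped as well.

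The 2 receptor genes showed the same wide overlap. Folr1 had a median of 1.79 FPKM in vehicle (1.43 to 3.27), 1.5 in angiotensin II (1.13 to 2.43), 1.52 in vehicle plus hydralazine (0.533 to 1.89) and 1.26 in angiotensin II plus hydralazine (0.811 to 2.44). Prlr had a median of 0.305 FPKM in vehicle (0.18 to 0.386), 0.241 in angiotensin II (0.121 to 0.31), 0.296 in vehicle plus hydralazine (0.198 to 0.342) and 0.267 in angiotensin II plus hydralazine (0.208 to 0.303). Prlr stayed under 0.5 FPKM in the hemisphere and is below the level at which genes were tested.

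Among channels and transporters, Clic6 had a median of 3.49 FPKM in vehicle (3.07 to 6.1), 3.38 in angiotensin II (2.81 to 3.93), 3.88 in vehicle plus hydralazine (2.09 to 4.16) and 3.49 in angiotensin II plus hydralazine (2.56 to 4.34). Kcnj13 had a median of 1.73 FPKM in vehicle (0.85 to 2.38), 1.16 in angiotensin II (0.96 to 2.13), 1.54 in vehicle plus hydralazine (1.09 to 2.31) and 1.34 in angiotensin II plus hydralazine (0.541 to 1.64). For both channel genes the ranges of all 4 groups overlapped. Aqp1 had a median of 1.65 FPKM in vehicle (0.987 to 2.95), 1.4 in angiotensin II (1.2 to 2.36), 1.76 in vehicle plus hydralazine (1.07 to 1.93) and 1.55 in angiotensin II plus hydralazine (0.933 to 1.84). Slc4a5 had a median of 0.64 FPKM in vehicle (0.42 to 1.24), 0.562 in angiotensin II (0.36 to 0.638), 0.599 in vehicle plus hydralazine (0.322 to 0.814) and 0.47 in angiotensin II plus hydralazine (0.439 to 0.669). The water channel and the bicarbonate cotransporter thus also overlapped between all treatments.

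The vehicle and angiotensin II ranges of Otx2 did not overlap in the hemisphere, but the difference did not pass the test described below (limma, adjusted p = 0.394). How many of all genes have such a pair of groups was not counted. Otx2 ran from 1.22 to 1.94 FPKM in vehicle (median 1.48) and from 0.453 to 1.15 FPKM in angiotensin II (median 1.12). In vehicle plus hydralazine it ran from 1.07 to 1.59 FPKM (median 1.46) and in angiotensin II plus hydralazine from 1.05 to 2.04 (median 1.14). Of the angiotensin II libraries 5 lay between 1.1 and 1.15 FPKM, and replicate 6 at 0.453.

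**Figure D1:**
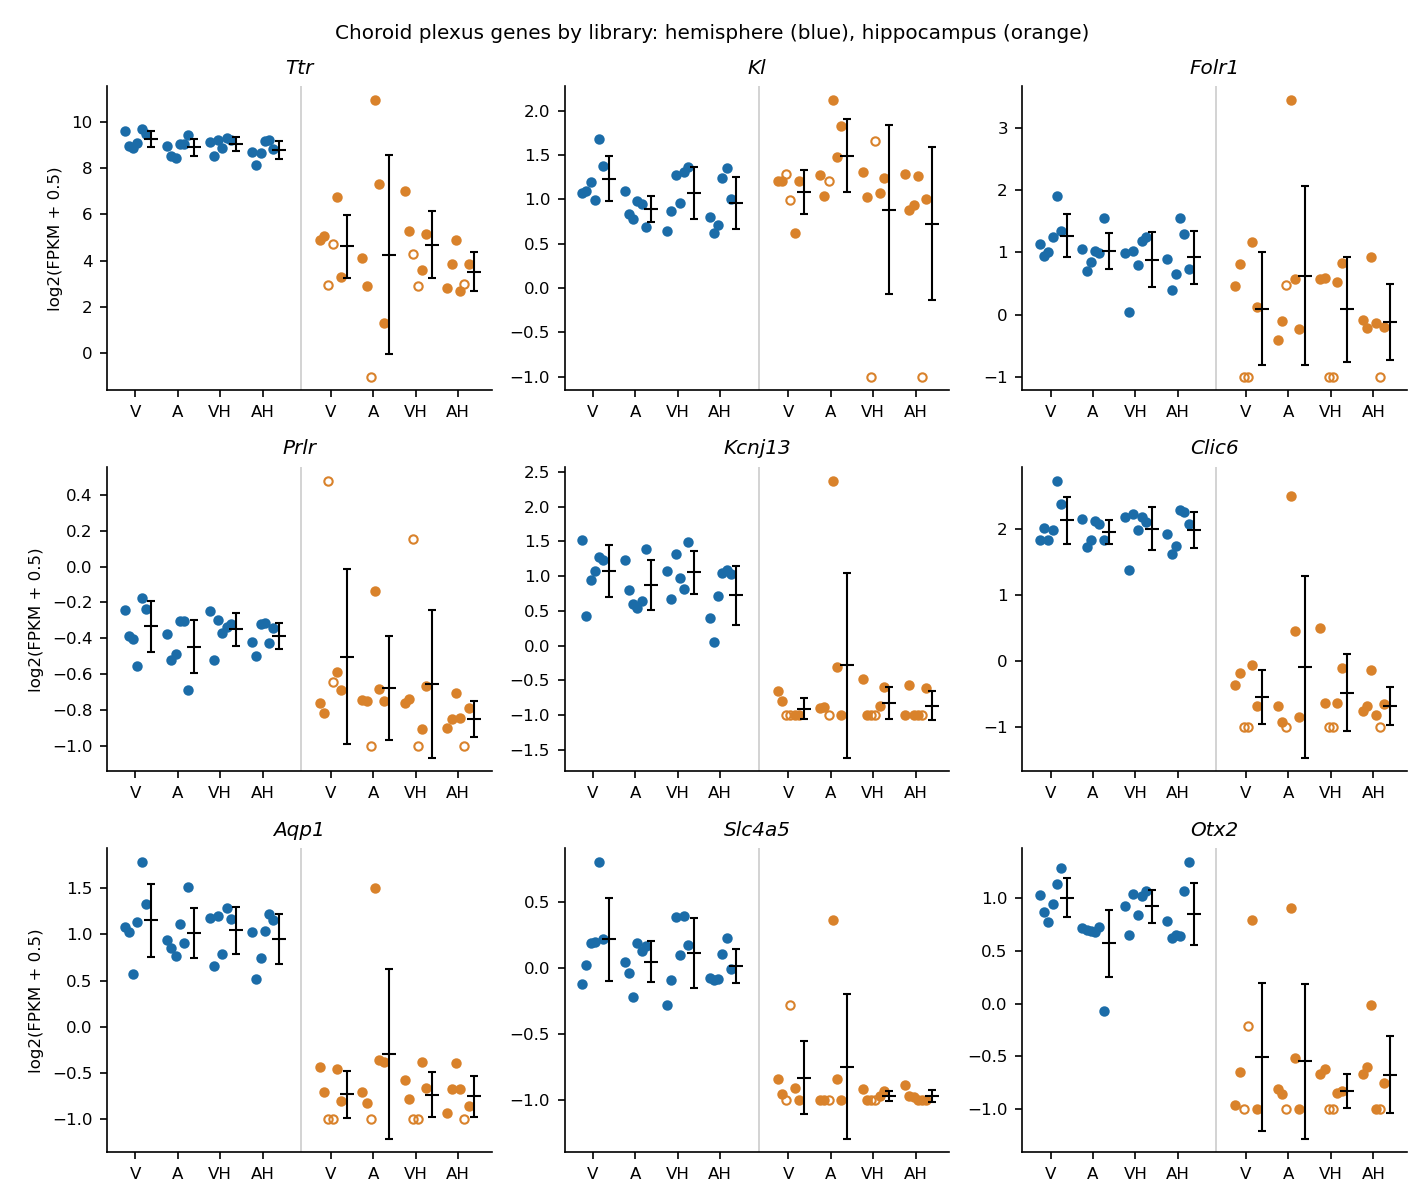
Level of each gene as log2(FPKM + 0.5) on the vertical axis, per library, in vehicle (V), angiotensin II (A), vehicle plus hydralazine (VH) and angiotensin II plus hydralazine (AH); blue is hemisphere, orange hippocampus, open circles the 6 hippocampal libraries with few genes, and black bars the mean and SD of 6 libraries. Hemisphere groups overlap for all genes but Otx2 in V and A, a difference that did not pass the test. In the hippocampus 1 angiotensin II library stands far above the rest (Ttr 1979 FPKM).

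No gene of the 9 passed the test for any treatment comparison in the hemisphere (limma, adjusted p under 0.05 over all 16747 genes tested). Angiotensin II against vehicle gave a lower value for 8 of 8 genes tested, with a median log2 difference of -0.23 where the median of all genes was -0.00, and 0 of the 8 were called against 0.0717% of all genes. The largest differences were those of Otx2 (-0.43, SE 0.14, adjusted p = 0.394), Ttr (-0.36, SE 0.19, adjusted p = 0.541) and Kl (-0.34, SE 0.14, adjusted p = 0.513). The remaining 5 lay between -0.14 (Aqp1) and -0.24 (Folr1). These 8 values are not 8 independent observations, since they come from the same libraries.

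With both drugs against vehicle, the log2 difference was again below 0 for 8 of 8 genes, from -0.15 (Clic6 and Otx2) to -0.49 (Ttr, SE 0.19, adjusted p = 0.803), with 0 called against 0% of all genes. Hydralazine alone against vehicle also gave 8 of 8 values below 0, from -0.02 (Kcnj13) to -0.39 (Folr1, SE 0.21, adjusted p = 1), with 0 called against 0%. These 3 comparisons share the vehicle libraries, whose replicate 5 held the highest level of Ttr, Kl, Folr1, Clic6, Aqp1, Slc4a5 and Prlr in the hemisphere. Without that library the Ttr difference under angiotensin II was -0.28 and that of Otx2 -0.41.

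Against angiotensin II alone, both drugs gave log2 differences from -0.15 (Kcnj13) to 0.28 (Otx2, SE 0.14, adjusted p = 0.851), and 5 of 8 were below 0. Against hydralazine alone they gave -0.34 (Kcnj13, SE 0.20) to 0.04 (Folr1). The interaction of the drugs ranged from -0.13 (Kcnj13) to 0.36 (Otx2, SE 0.20, adjusted p = 1). In each of these, 0 of the 8 genes and 0% of all genes were called. Prlr, fitted without a filter on low values, differed by -0.11 (SE 0.08, adjusted p = 0.728) under angiotensin II.

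**Figure D2:**
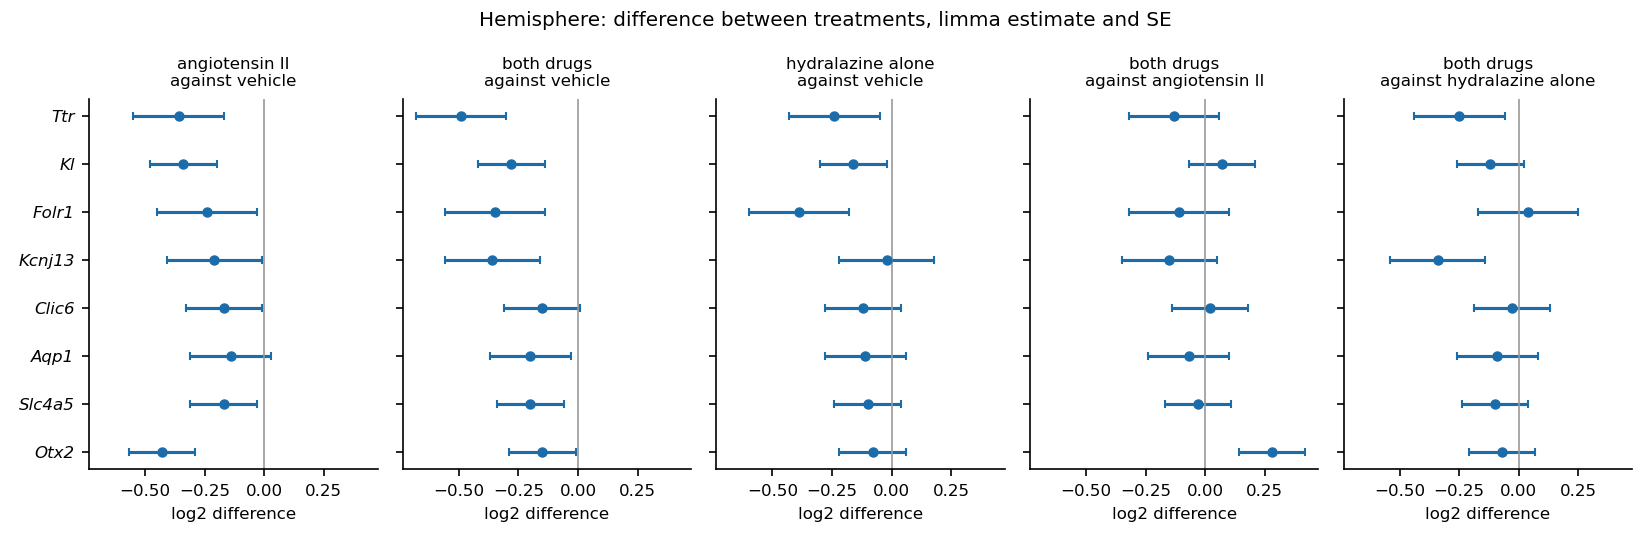
Log2 difference between hemisphere groups on the horizontal axis for 8 genes (rows) in 5 treatment comparisons (panels), as limma estimates with SE; Prlr is below the filter. The values for angiotensin II against vehicle run from -0.43 to -0.14, and none in any panel passed the test.

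Hemisphere angiotensin II replicate 6 moved these genes in opposite directions. It held the highest Ttr (687 FPKM), Folr1 (2.43), Kcnj13 (2.13) and Aqp1 (2.36) of its group and the lowest Otx2 (0.453), Kl (1.11) and Prlr (0.121). Its reads from mitochondrially encoded genes were 2.77% of the total, and its 10 listed genes of that kind summed to 19787 FPKM, where the other hemisphere libraries gave at least 35126. Without it the angiotensin II difference was -0.30 for Otx2 (adjusted p = 0.536) and -0.46 for Ttr (adjusted p = 0.584). The part of RNA quality in these values was not tested.

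In the hippocampus Ttr was low beside the hemisphere in all libraries but 1. Ttr ran from 7.24 to 108 FPKM in vehicle (median 27.5), from 6.93 to 127 in vehicle plus hydralazine (median 27.1) and from 6.07 to 29.2 in angiotensin II plus hydralazine (median 10.7). In angiotensin II the 6 libraries gave 16.7, 6.92, 0, 1979, 158 and 2.02 FPKM. The 0 belongs to replicate 3, which has few genes, and the 1979 to replicate 4, where 46279 reads were assigned to Ttr. Replicate 4 thus held more Ttr than any hemisphere library, and the next hippocampal value was 158 FPKM.

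Angiotensin II replicate 4 was the highest of the 18 hippocampal libraries with full gene numbers for all 9 genes. Folr1 stood at 10.5 FPKM against 0.256 to 1.74 in the other 17, Clic6 at 5.14 against 0.0282 to 0.921 and Kcnj13 at 4.68 against 0 to 0.312. Aqp1 stood at 2.34 FPKM against 0.0229 to 0.281, Slc4a5 at 0.781 against 0 to 0.0591 and Prlr at 0.411 against 0.0341 to 0.165. The gap was small for Kl (3.85 against 1.04 to 3.06 FPKM) and for Otx2 (1.38 against 0 to 1.23 FPKM).

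Other genes of the choroid plexus epithelium followed it in that library. Of 25 such genes 21 were highest there, among them Enpp2 (63.7 FPKM against 17.5 to 32.6 in the other 17), 1500015O10Rik (33.7 against 1.36 to 26.2) and Kcne2, a potassium channel subunit (4.69 against 0 to 0.385). Of the ependymal list 10 of 10 genes stood above the median of the other 17 libraries there, as did 10 of 10 meningeal genes. Ependymal genes summed to 90.4 FPKM, the second-highest of the 18 libraries, with Tmem212 at 20.2 (median of the other 17 7.2) and Ccdc153 at 13.4 (5.98), 2 genes chosen after their values were seen. Their part in the result was not tested. Of the lists for other cells and regions, 1 of 10 genes was highest there for ependyma, 1 of 10 for meninges, 1 of 9 for striatum and 1 of 6 for cerebellum. None was highest there of the 8 genes for endothelium, 5 for blood, 10 for thalamus and midbrain, 8 for hypothalamus and 10 for hippocampal neurons. In bulk tissue, more cells of a type and more RNA per cell cannot be told apart.

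The second-highest Otx2 value stood beside high values of several lists. Vehicle replicate 5 held Otx2 at 1.23 FPKM, the highest of the 17 full libraries other than angiotensin II replicate 4. Folr1 (1.74 FPKM) and Prlr (0.165) were also the highest of these 17. Clic6 (0.463, median 0.148), Aqp1 (0.23, median 0.126) and Slc4a5 (0.0312, median 0.00953) stood above their medians. Kcnj13, listed at 0, and Kl, at 1.04 FPKM, were at the lowest value of the 17. There the summed level of 10 genes typical of thalamus and midbrain was 218 FPKM, where angiotensin II replicate 4 gave 16.4, and the thalamic genes Tcf7l2 and Calb2 stood at 14.7 and 136 FPKM. Its ependymal genes summed to 138 FPKM, the highest of the 18 libraries. Ttr was 108 FPKM in it, where the median of these 17 was 16.7. The part of thalamic tissue in this Otx2 level was not tested.

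**Figure D3:**
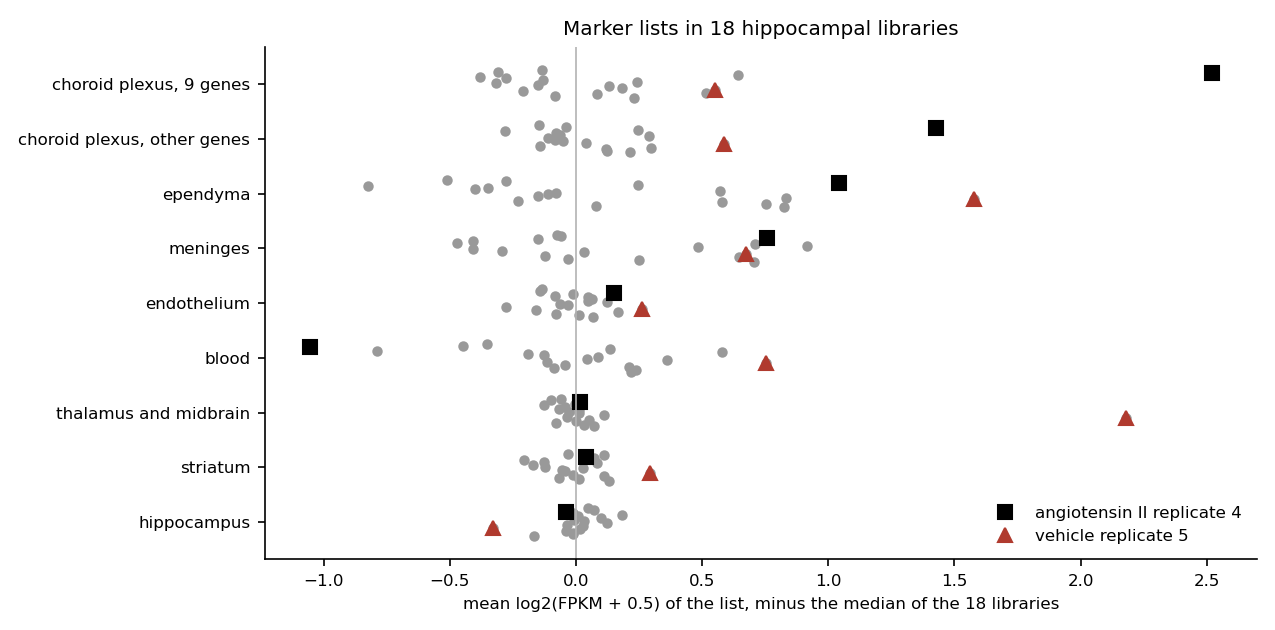
Mean log2(FPKM + 0.5) over each gene list in the 18 hippocampal libraries with full gene numbers, minus the median of the 18 libraries (horizontal axis); grey points are libraries. Angiotensin II replicate 4 (black square) lies to the right for the 2 choroid plexus lists and vehicle replicate 5 (triangle) for thalamus and midbrain, where its summed level was 218 FPKM.

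Klotho's gene did not follow the others in the hippocampus. Its median was 1.8 FPKM in vehicle (1.04 to 1.93), 2.1 in angiotensin II (1.55 to 3.85), 1.73 in vehicle plus hydralazine (0 to 2.65) and 1.45 in angiotensin II plus hydralazine (0 to 1.93), with both zeros in libraries of few genes. Angiotensin II replicate 6, with the lowest Ttr of the 18 libraries (2.02 FPKM), held the second-highest Kl (3.06 FPKM).

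Treatment comparisons in the hippocampus could be tested for only 3 of the 9 genes, Ttr, Kl and Folr1, since the other 6 did not reach 0.5 FPKM in 6 libraries. None was called in any of the 6 comparisons, nor was any of the 15267 genes tested (0%). Angiotensin II against vehicle gave log2 differences of -0.35 for Ttr (SE 1.30), 0.41 for Kl (SE 0.39) and 0.53 for Folr1 (SE 0.55), each with an adjusted p of 1. Both drugs against angiotensin II gave -0.74 for Ttr (SE 1.30), -0.76 for Kl (SE 0.39) and -0.74 for Folr1 (SE 0.55). Single libraries set these values: the angiotensin II difference of Folr1 was -0.03 without angiotensin II replicate 4. That of Ttr was 0.31 without the 6 libraries with few genes and -1.10 (SE 1.05) without these and replicate 4. Mean log2(FPKM + 0.5) of Kl was 1.49 in angiotensin II and 0.73 with both drugs, or 1.55 and 1.07 without the few-gene libraries. For Ttr (0.01, SE 1.35), Kl (0.75, SE 0.42) and Folr1 (0.78, SE 0.60) the angiotensin II effect did not differ between regions by test (0% of all genes called). Clic6, Kcnj13, Aqp1, Otx2 and Slc4a5 entered that fit only through their hemisphere level and are given with no test. Their differences ran from 0.25 for Slc4a5 (SE 0.23) to 0.83 for Kcnj13 (SE 0.44). Hippocampal angiotensin II replicate 4 held Kcnj13 at 4.68 FPKM, and the other 17 full libraries at 0 to 0.312.

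Between regions the largest difference was that of Ttr. In vehicle libraries it was lower in the hippocampus by a log2 difference of -4.66 (SE 0.95, adjusted p = 8.60e-05), or -4.26 (adjusted p = 3.23e-04) with no filter and without the 6 few-gene libraries. Clic6, Kcnj13, Aqp1, Otx2 and Slc4a5 entered the fit over both regions only through their hemisphere level, so their differences are given as values with no test. In vehicle these were -2.67 for Clic6 (SE 0.34), -1.99 for Kcnj13 (SE 0.31), -1.89 for Aqp1 (SE 0.24), -1.51 for Otx2 (SE 0.24) and -1.05 for Slc4a5 (SE 0.16). The pseudocount of 0.5 FPKM shrinks the difference of genes this low. Kl did not pass the test (-0.15, SE 0.30, adjusted p = 0.728). Folr1 passed it with all libraries (-1.18, SE 0.43, adjusted p = 0.023), but not without the 6 libraries with few genes (-0.63, adjusted p = 0.18).

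Of the 3 genes that could be tested within each region, Ttr and Folr1 were called lower in the hippocampus in vehicle, against 42.2% of all genes called in either direction. Ttr was also called lower in angiotensin II (-4.65, SE 0.95, adjusted p = 1.06e-04), where 37% of all genes were called. The hippocampal mean log2(FPKM + 0.5) behind this value was 4.27 with the few-gene replicate 3, where Ttr was 0, and 5.32 without it. The Ttr differences were -4.33 (SE 0.95, adjusted p = 1.99e-04) in vehicle plus hydralazine (50.7% of all genes called) and -5.26 (SE 0.95, adjusted p = 1.30e-05) in angiotensin II plus hydralazine (42.4%). Folr1 was called in angiotensin II plus hydralazine (-1.04, SE 0.43, adjusted p = 0.0458), and not in angiotensin II (-0.40, adjusted p = 0.504) or vehicle plus hydralazine (-0.80, adjusted p = 0.115). The call in angiotensin II plus hydralazine was lost with no filter and without the few-gene libraries (-0.86, adjusted p = 0.0847). When replicate 4 was also left out, Folr1 was called in it (adjusted p = 0.00286, with 35.9% of all genes called), in angiotensin II (-1.07, adjusted p = 7.33e-04, 30.9%) and in vehicle (-0.63, adjusted p = 0.0467, 33.8%). In angiotensin II, Kl differed by 0.60 (SE 0.30, adjusted p = 0.108), a value above 0. With no filter and without the few-gene libraries that difference was 0.66 (SE 0.16, adjusted p = 0.0012), with 32.3% of all genes called. It was 0.52 (SE 0.16, adjusted p = 0.0115) when replicate 4 was also left out, with 30.9% called.

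By single libraries, of the 18 hippocampal libraries with full gene numbers, 17 lay below the lowest hemisphere library for Ttr, Clic6, Kcnj13, Aqp1 and Slc4a5, the exception being angiotensin II replicate 4. The number was 15 for Otx2, 13 for Prlr, 7 for Folr1 and 0 for Kl. How many of all genes are separated in this way was not counted. Clic6, Kcnj13, Aqp1, Otx2 and Slc4a5 passed the filter through their hemisphere level. Marker lists of tissue outside the hippocampus had median log2 differences in vehicle of -2.28 for 9 striatal genes, -5.60 for 6 cerebellar genes and -1.54 for 9 meningeal genes, where the median of all genes was -0.21. Many of these genes passed the filter through their hemisphere level, so their calls are not counted. For 10 ependymal genes the median was 0.51, with 0 called lower and 1 called higher (42.2% of all genes called).

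**Figure D4:**
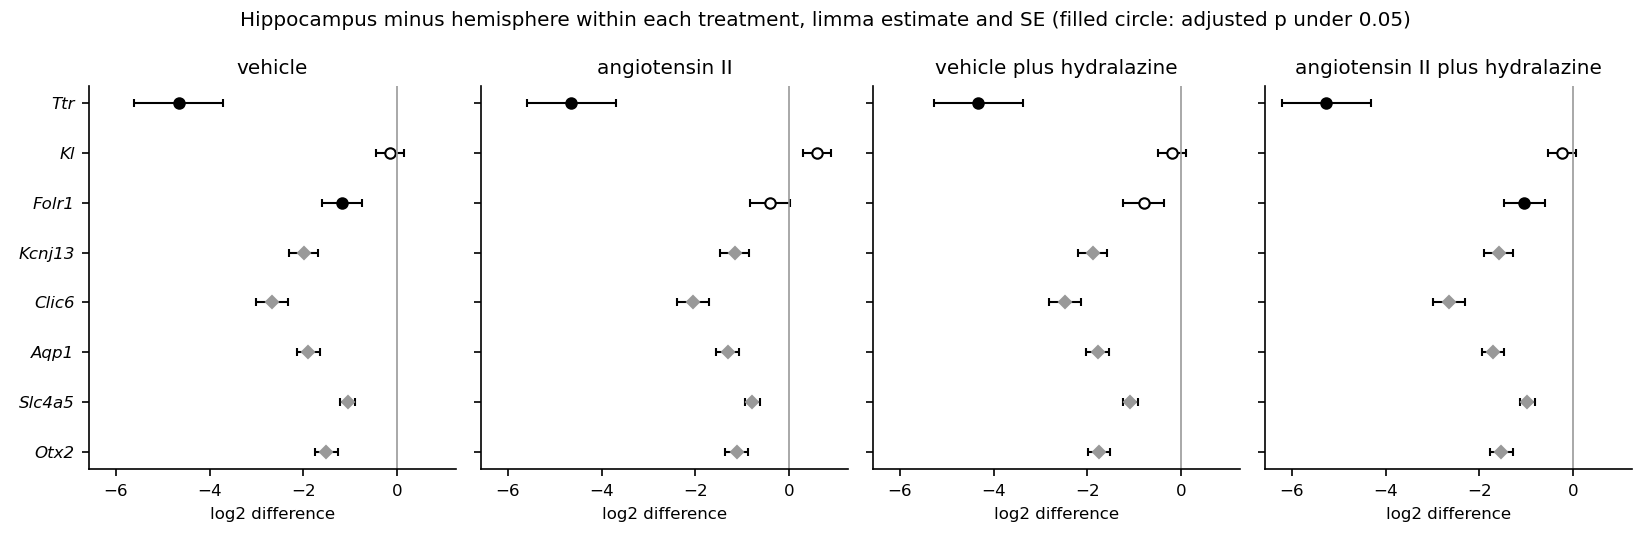
Log2 difference, hippocampus minus hemisphere, on the horizontal axis for 8 genes (rows) within each treatment (panels), as limma estimates with SE; filled circles have an adjusted p under 0.05, open circles do not, and grey diamonds are the 5 genes given with no test. Ttr lies at -4.66 in vehicle, and Kl is not called in any panel.

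The spread between libraries of a hemisphere group differed among these genes. The within-group SD on the log2 scale was 0.38 for Folr1, 0.37 for Kcnj13, 0.35 for Ttr, 0.30 for Aqp1 and 0.29 for Clic6, where the median over all genes was 0.18. Kl and Otx2 had 0.25 and Slc4a5 0.23. Among the genes nearest to each in level, Ttr stood at percentile 96.4, Folr1 at 89, Clic6 at 87.8, Kcnj13 at 86.4 and Aqp1 at 79.6. Kl at 67.5, Otx2 at 65.1 and Slc4a5 at 44.3 lay nearer the middle. In the hippocampus Ttr had an SD of 2.40, the 5th largest of 15267 genes, where the median was 0.56. That SD includes the 0 of angiotensin II replicate 3 and the 1979 FPKM of replicate 4. It ran from 1.62 to 2.93 over the alternative fits.

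The folate receptor gene Folr1 and the water channel gene Aqp1 rose and fell with Ttr across the 24 hemisphere libraries. Fitted on log2 Ttr with a mean for each treatment, Folr1 had a slope of 0.94 (SE 0.13, adjusted p = 9.53e-04) and Aqp1 a slope of 0.73 (SE 0.11, adjusted p = 0.00396), and both were called. Of the 7 genes tested against Ttr these 2 were called, where 0.0358% of all genes were. Kcnj13 (0.78, SE 0.16, adjusted p = 0.0715), Clic6 (0.59, SE 0.13, adjusted p = 0.128), Kl (0.43, SE 0.13, adjusted p = 0.26) and Slc4a5 (0.36, SE 0.13, adjusted p = 0.275) had positive slopes that did not pass. Otx2 had a slope of 0.12 (SE 0.15, adjusted p = 0.646). Without the 2 libraries farthest from the median of Ttr, vehicle replicate 5 and angiotensin II plus hydralazine replicate 2, Folr1 stayed called and Aqp1 had 0.65 (adjusted p = 0.0568). When the replicate number was added to the fit as a block, neither gene was called (Folr1 0.83, Aqp1 0.68, adjusted p = 0.399 for both), and 0 of all genes were.

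Each gene was also divided by Ttr in the same library. Per 1000 FPKM of Ttr there were 3.09 FPKM of Aqp1 (2.1 to 3.78 over 24 libraries), and the within-group SD, here on log2 FPKM with no pseudocount, was 0.40 for its level and 0.22 for the ratio. For Folr1 these SDs were 0.53 and 0.29, for Kcnj13 0.52 and 0.35, for Clic6 0.33 and 0.26, for Slc4a5 0.42 and 0.37, and for Kl 0.34 and 0.31. For Otx2 the ratio varied more than the level (0.48 and 0.37), and likewise for Prlr (0.41 and 0.37). In hippocampal angiotensin II replicate 4 the ratio was 1.18 for Aqp1, 2.6 for Clic6 and 0.395 for Slc4a5, below all hemisphere libraries (2.1, 4 and 0.547 at lowest). It was 5.31 for Folr1, above all of them (4.24 at most), while Kcnj13 with 2.36 and Kl with 1.95 were within their range.

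**Figure D5:**
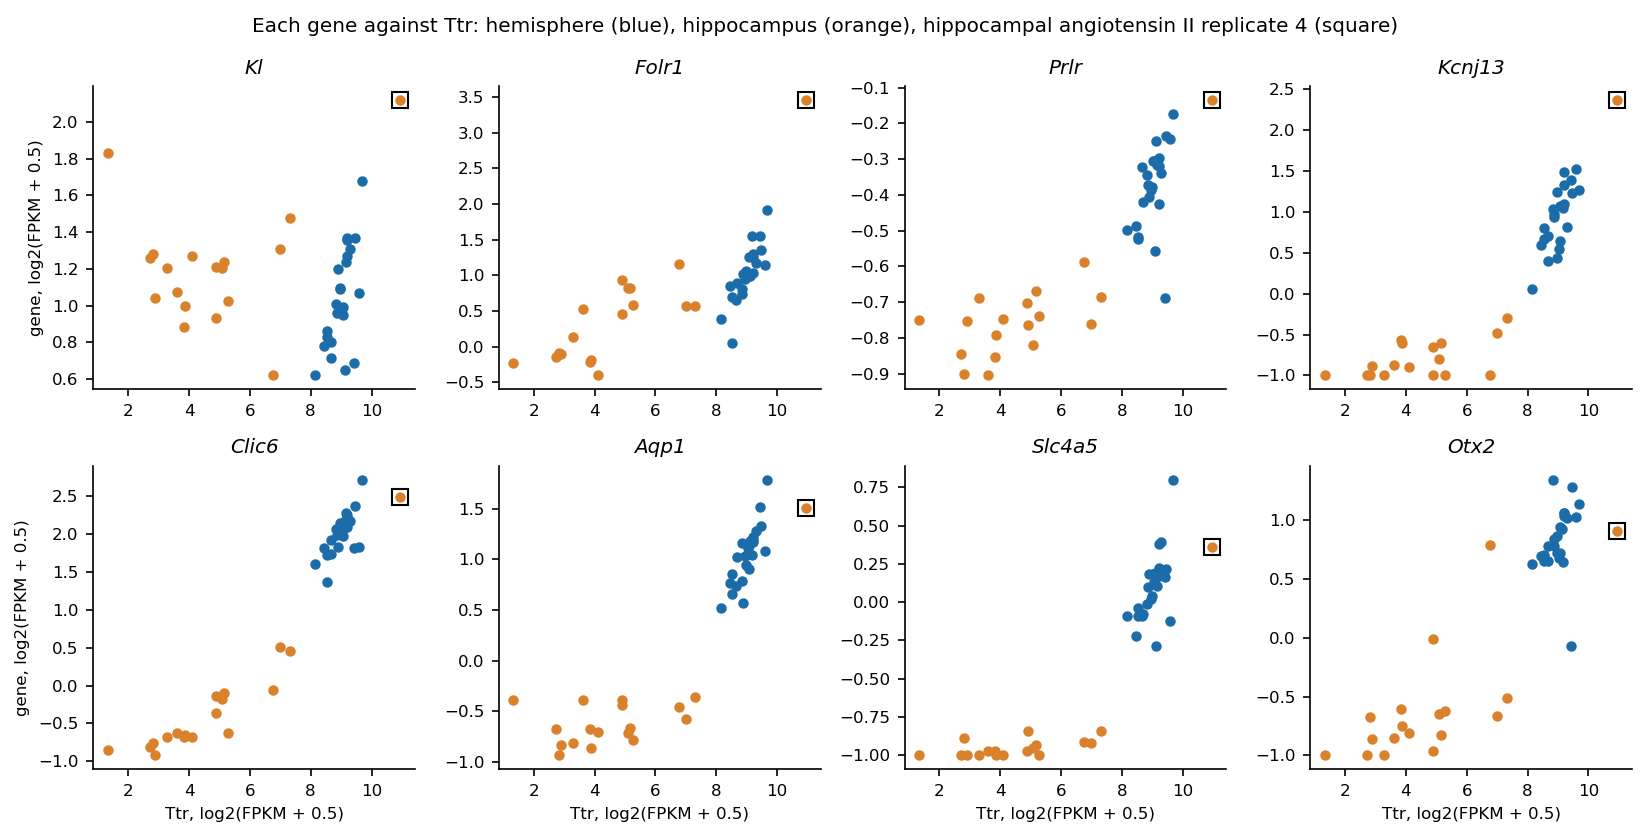
Level of 8 genes on the vertical axis against Ttr on the horizontal axis, both as log2(FPKM + 0.5), for 24 hemisphere libraries (blue) and the 18 hippocampal libraries with full gene numbers (orange); the square marks hippocampal angiotensin II replicate 4. Aqp1 and Folr1 climb with Ttr within the hemisphere (slopes 0.73 and 0.94), and Kl has a slope of 0.04 in the hippocampus.

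For the genes that varied with Ttr to unlike degrees, the RefSeq table (GRCm38.p6) gave the 250 bases before the start site for 6 of the 9 (Kl, Kcnj13, Aqp1, Otx2, Slc4a5 and Prlr, with 11 start sites). Those printed are Aqp1 and Kcnj13, with steep slopes on Ttr, Kl, which was not called between regions in vehicle, and the Otx2 start with a match to TAATCC, the core that OTX proteins bind. Capitals mark TAATCC or its reverse complement, and TATAAA or its reverse complement. Positions are chr6:55336049-55336298 (+) for Aqp1, chr1:87394730-87394979 (-) for Kcnj13, chr5:150952357-150952606 (+) for Kl and chr14:48665110-48665359 (-) for Otx2.
Aqp1: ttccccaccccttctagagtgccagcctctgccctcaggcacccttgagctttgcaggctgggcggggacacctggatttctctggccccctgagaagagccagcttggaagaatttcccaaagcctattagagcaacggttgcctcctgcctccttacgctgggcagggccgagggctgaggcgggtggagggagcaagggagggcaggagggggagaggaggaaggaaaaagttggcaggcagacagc
Kcnj13: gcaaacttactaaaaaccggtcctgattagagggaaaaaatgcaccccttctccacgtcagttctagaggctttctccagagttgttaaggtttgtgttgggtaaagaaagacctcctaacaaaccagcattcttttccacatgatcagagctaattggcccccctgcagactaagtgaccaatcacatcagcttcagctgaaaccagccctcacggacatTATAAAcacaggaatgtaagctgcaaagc
Kl: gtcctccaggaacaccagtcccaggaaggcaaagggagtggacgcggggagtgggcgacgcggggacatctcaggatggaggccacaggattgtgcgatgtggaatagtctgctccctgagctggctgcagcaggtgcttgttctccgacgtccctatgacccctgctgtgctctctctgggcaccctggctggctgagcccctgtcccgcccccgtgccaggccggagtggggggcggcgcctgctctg
Otx2: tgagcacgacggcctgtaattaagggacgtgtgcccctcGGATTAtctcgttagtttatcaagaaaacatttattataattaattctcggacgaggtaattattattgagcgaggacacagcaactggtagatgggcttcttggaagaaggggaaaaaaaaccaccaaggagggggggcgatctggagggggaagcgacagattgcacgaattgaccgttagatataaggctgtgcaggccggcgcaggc

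The 4 stretches differ in composition. G and C make up 62% of that of Aqp1, 45.2% of Kcnj13, 66.8% of Kl and 48.4% of Otx2, with 5, 3, 13 and 14 CG dinucleotides, where the median of 32851 windows of this length was 52.4% and 6. TAATCC was searched on both strands and occurred in 1 of the 11 windows, that of Otx2 at position -211, and in 6.25% of all windows. TATAAA, also on both strands, occurred in 1 window each of Kcnj13 (position -29), Slc4a5 and Otx2, and in 12.4% of all windows. A match describes the letters only.

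The protein-coding genes that varied most like Ttr in the hemisphere, by the moderated t of that slope over 24 libraries and leaving out the 9, were Mfrp, Kcne2, Ace, Epn3, Sap30, Igfbp2, Calml4, Aldh18a1, Fam222a and C1qtnf2. Called among these were Mfrp (slope 0.91, SE 0.12, adjusted p = 9.53e-04), Kcne2 (1.02, SE 0.17, adjusted p = 0.0126) and Ace (0.51, SE 0.09, adjusted p = 0.0363). Kcne2 encodes a potassium channel subunit of the choroid plexus, and Ace the enzyme that makes angiotensin II. By the same order Folr1 ranked 3 of 16746 genes, Aqp1 4, Kcnj13 9, Clic6 10, Kl 140, Slc4a5 429 and Otx2 5236.

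Other lists were set against Ttr in the same way. Of 21 further choroid plexus genes tested in the hemisphere, 18 had a slope above 0 (median 0.41, against -0.01 for all genes) and 2 were called, Kcne2 and 1500015O10Rik (slope 0.63, SE 0.08, adjusted p = 7.27e-04). The 5 blood genes also had slopes above 0 (median 0.63, 0 called), as had 10 of 10 ependymal genes (median 0.25, 0 called). For 11 genes of ion transport in fluid secretion the median was 0.13, with 0 called, and Atp1b1, Atp1b2 and Car2, whose hemisphere medians were 362, 181 and 99.6 FPKM, are also expressed outside the choroid plexus. For partners of the 9 in hormone, folate and retinol transport the median was 0.04, with 0 of 9 called. The part of blood in the relation was not tested.

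Under angiotensin II against vehicle in the hemisphere, 0 of the 21 further choroid plexus genes were called (14 below 0, median -0.09), 0 of 11 ion transport genes (median -0.03) and 0 of 9 partners (median 0.01). Meningeal genes had 8 of 9 values above 0 (median 0.12) and thalamic and midbrain genes 7 of 10 below 0 (median -0.18), with 0 called in both. The median of the 10 mitochondrially encoded genes was -0.21.

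In the hippocampus only Kl and Folr1 could be tested against Ttr with the filter, and neither was called, where 0.00655% of all genes were. Folr1 had a slope of 0.29 (SE 0.07, adjusted p = 0.306) and Kl of 0.04 (SE 0.06, adjusted p = 0.99). With no filter 4 of 8 genes were called, where 0.0742% of all genes were. These were Clic6 (0.30, SE 0.03, adjusted p = 1.90e-04), Kcnj13 (0.23, SE 0.04, adjusted p = 0.0228), Aqp1 (0.17, SE 0.03, adjusted p = 0.0329) and Otx2 (0.18, SE 0.03, adjusted p = 0.0382). Without angiotensin II replicate 4 and the 6 few-gene libraries none was called, with Clic6 at 0.25 (SE 0.04, adjusted p = 0.281) and Aqp1 at 0.04 (SE 0.04, adjusted p = 0.677). The gene called with the filter was 2900040C04Rik, from the list of further choroid plexus genes (0.42, SE 0.05, adjusted p = 1.47e-04). Replicate 4 held it at 12.4 FPKM and the other 17 full libraries at 0.107 to 4.57. No gene was called without replicate 4 and the few-gene libraries, nor without the 2 libraries farthest from the median of Ttr (0 of all genes in both).

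The most Ttr-like protein-coding genes in the hippocampus were Enpp2, Cox8b, Pifo, Trpv4, Krt8, Lhb, Cavin3, Ccdc113, Cfap161 and Fam216b, none of them called. Enpp2, which encodes the secreted enzyme autotaxin, led with a slope of 0.14 (SE 0.02, adjusted p = 0.0622). Ccdc113 and Cfap161 encode proteins of motile cilia. All 10 genes of the ependymal list, whose cells bear such cilia, had slopes above 0 (median 0.23, 0 called).

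Ttr of a hippocampal library had no clear relation to Ttr of the same-numbered hemisphere library of that treatment. Over 24 pairs Pearson's r was 0.184 (permutation p = 0.396) and Spearman's rho 0.018 (permutation p = 0.935), both two-sided, in 1 comparison. Without the 2 pairs farthest from the median of hemisphere Ttr, r was 0.164, and over the 18 pairs without a few-gene library it was -0.066 (permutation p = 0.796).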

How the data were processed

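RNA was extracted from the dissected tissue with a column kit and, per the labels' protocols, total RNA went into the libraries. The authors deposited FPKM for 54532 genes in 48 libraries, with another value beside each gene, its length in bases. The submitters' processing notes name DESeq 1.10.1 and the builds GRCm38 and mm10. Which aligner and counter were used is not given in the sources used here. Multiplied by gene length, at least 99.97% of the values of every library were whole steps of what 1 read is worth (tolerance 0.1 read), and the reads recovered this way describe depth only.

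The analysis scale was log2(FPKM + 0.5), on which changes of low genes come out too small. A gene entered a fit when 6 or more of its libraries had 0.5 FPKM or more. Fits used limma 3.58.1 in R 4.3.3 (mean-variance trend, robust prior) with 1 mean per group, and p-values were adjusted by Benjamini-Hochberg over all genes tested. Genes with an adjusted p under 0.05 were called, two-sided. Each region was fitted on its 24 libraries and regions were compared on all 48. For the relation with Ttr, log2 Ttr was added to the treatment means, so Ttr itself has no test there. In simulated reads with known changes, 80% of 1.5-fold and 98% of 2-fold changes were recovered between angiotensin II and vehicle in the hemisphere (16575 genes), and 20% and 46% in the hippocampus (15114 genes). The changed genes were drawn from those with a mean log2(FPKM + 0.5) above 1. Hemisphere Kcnj13 (0.93), Otx2 (0.84), Slc4a5 (0.10) and Prlr (-0.38) and hippocampal Folr1 (0.17) lay below that, so recovery was not simulated at their level. These percentages describe the 50 genes changed at each size and need not hold for genes of wider spread. Hemisphere Ttr had a within-group SD of 0.35 and Folr1 of 0.38, where the median over all genes was 0.18. In the hippocampus Ttr had an SD of 2.40 (median 0.56), and its angiotensin II difference an SE of 1.30. In the real hemisphere comparison a limma p of 0.00454 (Otx2) became 0.394 when adjusted. How often a change in Ttr or Folr1 would be called was not tested. Tables and figures were made with Python 3.11.15, pandas 2.3.3 and matplotlib 3.10.9. Correlations used 100000 permutations. All 120 pairs of libraries of a group differed by more than sampling noise (chi-square per gene of 3.08 or more).

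The 9 genes and the lists were chosen with earlier results of these data known. The lists cover further choroid plexus genes, ion transport of fluid secretion, partners of the 9 genes, ependyma, meninges, endothelium, thalamus and midbrain, hypothalamus, striatum, hippocampus, cerebellum, blood and mitochondrially encoded genes. Named beside the 9 were the 10 protein-coding genes with the largest moderated t on Ttr in each region, leaving out clone names, and up to 4 genes of each list by level or by call. One gene that this rule named is not reported here. The alternatives tried were other pseudocounts (0.1 and 1), other filters (0.1 FPKM, 1 FPKM, none), quantile and median-of-ratios scaling, library weights, limma without trend and robust prior, a mitochondrial covariate, a replicate block, each library left out, fits of the 2 groups compared, and fits without the 6 few-gene libraries. Fits without these and angiotensin II replicate 4, and without a filter and without these libraries, were added after the data were seen.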

Additional observations from a re-analysis of the deposited data

Results flagged for a closer look

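Libraries that stand far from the other 5 of their group, by Dixon's test at the 95% level, occurred for 16 of the 72 combinations of gene and group, where chance flags about 1 in 20. Of these 12 were in the hippocampus and 4 in the hemisphere. Hippocampal angiotensin II replicate 4 was the high library for Folr1 (10.5 FPKM), Kcnj13 (4.68), Aqp1 (2.34), Otx2 (1.38), Slc4a5 (0.781) and Prlr (0.411). Libraries with few genes gave another 5: Kl at 0 FPKM in vehicle plus hydralazine replicate 3 and at 0 in angiotensin II plus hydralazine replicate 5, Slc4a5 at 0.322 in vehicle replicate 4, and Prlr at 0.894 in vehicle replicate 3 and 0.612 in vehicle plus hydralazine replicate 3. Slc4a5 at 0.0414 FPKM in angiotensin II plus hydralazine replicate 1 completes the hippocampal set. In the hemisphere, vehicle plus hydralazine replicate 2 was low for Folr1 (0.533) and Clic6 (2.09), angiotensin II replicate 6 was low for Otx2 (0.453), and vehicle replicate 5 was high for Slc4a5 (1.24). No tested gene of the 9 passed the test of the interaction of the drugs. Ttr, Kl and Folr1 did not pass that of the difference of the angiotensin II effect between regions.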

How the results depend on the processing

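No gene of the 9 was called for any of the 12 treatment comparisons and interactions under any of their 454 alternative fits. In the hemisphere the angiotensin II difference stayed below 0 in 36 of 36 fits for Ttr (-0.46 to -0.27), Kl (-0.42 to -0.26) and Otx2 (-0.58 to -0.30). In the hippocampus its sign depended on single libraries. For Ttr it was 1.14 with library weights, 0.31 without the 6 few-gene libraries (also 0.31 with no filter), 0.08 without vehicle replicate 5, 0.70 without angiotensin II replicate 3 and 0.23 without angiotensin II replicate 6, in a range of -1.69 to 0.70 over single libraries left out. For Folr1 it was -0.03 without angiotensin II replicate 4 (up to 0.75 without other single libraries) and -0.68 without this and the few-gene libraries (with and without the filter).

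The number of genes that varied with Ttr in the hemisphere was 2 of 7 in the report. It was 4 of 7 with quantile normalization (0.0418% of all genes called) and 4 of 7 with library weights (0.0836%). Without the 2 libraries farthest from the median of Ttr it was 1 of 7 (0.03%). With each library left out it ran from 2 to 3. In the hippocampus, where it was 0 of 2, the number of genes tested changed with the filter. It was 4 of 7 with a filter at 0.1 FPKM (0.066% of all genes called) and 4 of 8 with no filter (0.0742%). Library weights gave 1 of 2 (0.432%), and so did the fit without the few-gene libraries (0.206%). Without both these and the filter it was 3 of 8 (0.097%). The hippocampal slope of Kl was -0.0038 without angiotensin II replicate 4 (up to 0.06 without other single libraries), -0.02 without the 2 libraries farthest from the median of Ttr and -0.05 without replicate 4 and the few-gene libraries (with and without the filter). Between regions in vehicle, Kl differed by 0.17 with quantile normalization. Folr1 lost its call there with quantile normalization (-0.92), without hemisphere vehicle replicate 5 (-1.05) and without hippocampal vehicle replicate 3 or 4 (-0.96 each).

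Over all genes, deviations of same-numbered libraries correlated with a median of 0.00 in the hemisphere (-0.21 to 0.47), 0.07 in the hippocampus and -0.01 between regions. Whether the number pairs the libraries for single genes such as Ttr was not tested. With the number as a replicate block, the within-group SD of hemisphere Ttr was 0.23, where it was 0.35 without the block. With the block, 0 genes were called on Ttr in the hemisphere (Folr1 0.83, Aqp1 0.68, adjusted p = 0.399 for both) and the slope of Otx2 was -0.28. Counts over all genes moved with library weights, from 12 to 38 for angiotensin II in the hemisphere and from 0 to 102 for both drugs against vehicle. The correlation of Ttr between regions was -0.066 without the few-gene pairs. The causes were not tested. Low read numbers limit the precision of Slc4a5, Prlr and the hippocampal levels.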
